A study of Homo sapiens with 7 samples.

Results

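The genes of this report are the 9 human genes HLA-B, HLA-C, HLA-E, B2M, TAP1, TAP2, PSMB8, PSMB9 and NLRC5, which serve MHC class I antigen presentation. They were chosen by name from the GENCODE 44 annotation on hg19, in which they are 9 of 20162 protein-coding genes, and the rule that names them uses no measured value, although the set was proposed with earlier results of these data known. For each gene, every deposited interval over its annotated record and 10 kb on either side was taken. These windows held 73 of the 240889 intervals of the 6 peak lists.

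The intervals come from PIXUL-ChIP-seq of HCT116, a human colorectal carcinoma cell line. For each of 7 antibodies, chromatin of 1 well of 200000 cells was crosslinked and sheared in a 96-well plate sonicator, and 1 library was made. No treatment, time course or other genotype is labelled, so the groups are the antibodies: H3K4me1, H3K4me3, H3K9Ac, H3K27Ac, H3K27me3, H3K36me3 and CTCF. Lists of 6 antibodies were used, and H3K27Ac was not analysed here. Each mark has 1 library and the lists hold no read counts. Depth is therefore unknown, no value carries a replicate error, no test was possible, and fold enrichment is compared only between intervals of the same list.

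An interval is described by its fold enrichment, the ratio of its signal to the local background of the peak caller, and by the −log10 of its q-value. It is called past the limits where it meets those of the study: q below 1e-03 and fold above 2 for H3K4me1 and H3K27me3, and q below 1e-10 and fold above 5 for the other marks. Of the 73 intervals, 41 were past the limits and 32 were under them. The epithelial label was met at 5 of 6 colon epithelium markers. EPCAM, CDH1, CDX2, KRT8 and KRT18 had an H3K4me3 peak past the limits at the transcription start site (TSS), with fold enrichments from 21.8 to 31.6, and VIL1 had no interval there. The blood cell markers PTPRC, CD3E and CD14 had no H3K4me3 interval at the TSS.

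MHC class I molecules show short peptides from the inside of nearly every nucleated cell to CD8+ T cells. The proteasome cuts the peptides, the TAP transporter carries them into the endoplasmic reticulum, and there they are loaded onto a heavy chain paired with β2-microglobulin. Interferon γ raises the expression of the whole pathway, and NLRC5 is the transactivator that acts at class I promoters through a conserved module of W/S, X1, X2 and Y boxes. Of the marks, H3K4me3 and H3K9Ac lie at active promoters, H3K4me1 flanks promoters and marks enhancers, H3K36me3 covers transcribed gene bodies, H3K27me3 marks Polycomb repression, and CTCF is a DNA-binding protein that shapes chromatin loops.

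The promoter stretches that carry the regulatory elements of this pathway are shown first, because the H3K4me3 peaks below are described around them. Letters were read from the hg19 genome on the strand of the gene, with TSS positions from GENCODE 44, and positions are counted from the TSS as 0. Promoters of 300 bases were searched, from -250 to 49. In the heavy chain genes and B2M, the capitals mark TGACG, the core of the X2 box, and the first Y box letters, CCAAT or its reverse ATTGG, that begin 15 to 35 bases after it.
HLA-B, chr6:31325018-31325082, minus strand: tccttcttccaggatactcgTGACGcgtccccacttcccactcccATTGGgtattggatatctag
HLA-C, chr6:31239930-31239994, minus strand: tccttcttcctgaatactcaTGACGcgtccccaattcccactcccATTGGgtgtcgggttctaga
HLA-E, chr6:30457159-30457221, plus strand: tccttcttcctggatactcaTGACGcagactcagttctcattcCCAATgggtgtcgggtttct
B2M, chr15:45003620-45003685, plus strand: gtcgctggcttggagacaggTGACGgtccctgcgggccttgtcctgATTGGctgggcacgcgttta

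In these 4 genes TGACG began 106, 105, 107 and 75 bases upstream of the TSS of HLA-B, HLA-C, HLA-E and B2M. The marked Y box letters began 25, 25, 23 and 26 bases further on. HLA-C held a further CCAAT between its marked letters, at -95, which is nearer to TGACG than this spacing allows. Each motif alone is common: TGACG, searched on both strands, occurred in 6 of the 9 promoters and in 29.1% of all protein-coding promoters of the same length, and CCAAT in 6 of 9 and in 35.9%. TGACG followed by CCAAT on either strand after 15 to 35 bases occurred in 4 of the 9 and in 259 of 20162 coding promoters (1.28%). This arrangement was defined after the promoters had been seen. The HLA-B and HLA-C promoters were identical at 269 of 304 aligned positions (88.5%), so they are not independent examples. HLA-E, another heavy chain gene, matched HLA-B at 63.7%, above the 49.4% at which B2M matched it. Whether HLA-E is an independent example was not tested.

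In the following promoter stretches the capitals mark GAAA, any 2 bases and GAAA again, or the reverse complement. This is the core of the interferon-stimulated response element (ISRE) that interferon regulatory factors bind.
B2M, chr15:45003551-45003606, plus strand: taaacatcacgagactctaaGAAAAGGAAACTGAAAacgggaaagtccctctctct
TAP1, chr6:32821580-32821635, minus strand: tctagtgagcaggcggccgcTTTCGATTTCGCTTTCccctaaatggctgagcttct
TAP2, chr6:32806545-32806594, minus strand: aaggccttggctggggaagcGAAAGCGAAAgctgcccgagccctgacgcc
PSMB8, chr6:32811799-32811848, minus strand: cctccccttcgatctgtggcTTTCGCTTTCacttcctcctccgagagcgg

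The ISRE core was found in these promoters, and in 3.32% of all coding promoters. B2M and TAP1 each held 2 matches that overlap each other, which makes the capital run longer than 10 bases. The match lay across the TSS itself in PSMB8, and began 58 bases upstream of it in TAP2. In B2M the matches began at -144 and -138, and in TAP1 at -134 and -128. HLA-B, HLA-C, HLA-E and PSMB9 held no exact match of these letters in these windows. Other forms of the element were not searched, so these promoters are not shown to lack it. PSMB8 also held the only match of TTCNNNGAA, the letters of the γ-activated site, at -65, against 6.48% of coding promoters. No match of a motif overlapped a match of a different motif in the 9 promoters.

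The κB element was searched only as GGGGA, any base and TCCCC on both strands, and is shown because HLA-B alone of the heavy chain genes matched these exact letters. The capitals mark the match. The HLA-C stretch, which begins with the same letters 4 bases nearer to the TSS, has no exact match. At the same place it reads ggggattctcc, with T for a C. Other forms of the element were not searched, so HLA-C is not shown to lack it.
HLA-B, chr6:31325089-31325149, minus strand: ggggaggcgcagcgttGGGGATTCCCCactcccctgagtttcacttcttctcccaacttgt
HLA-C, chr6:31239998-31240058, minus strand: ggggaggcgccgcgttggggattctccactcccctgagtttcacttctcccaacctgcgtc
HLA-B was the only one of the 9 with this match, which occurred in 19 coding promoters (0.0942%). A match of letters is a description of the reference sequence and not a measured binding site.

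An H3K4me3 promoter peak past the limits was present at 8 of the 9 genes, and PSMB8 had none. Among all protein-coding genes, 59.1% had an H3K4me3 peak past the limits within 1 kb of the TSS of the canonical transcript. The same 8 genes had an H3K9Ac peak past the limits at the TSS (58.5% of coding genes), and both marks together were seen at 57.5% of coding genes. TAP1 and PSMB9 lie head to head and share 1 peak of each mark, so the 8 genes stand on 7 peaks. Their H3K4me3 fold enrichments ran from 18.6 to 28.7 with a median of 21.2, against a median of 22.5 and a middle 50% from 17.3 to 27.8 over the 11924 coding genes with such a peak. The H3K9Ac values ran from 12.02 to 16.7 with a median of 13.3, against 13.1 and a middle 50% from 10.5 to 15.9. At each of these marks the class I genes with a peak lay within the middle 50% of coding TSS peaks, apart from HLA-C, which lay above it for both. Promoter peaks are among the stronger ones of the H3K9Ac list. The peaks of these 8 genes lay above 80.6 to 93.8% of that whole list. In order of H3K4me3 fold enrichment, HLA-C was followed by HLA-B, B2M, the shared TAP1 and PSMB9 peak, HLA-E, NLRC5 and TAP2. With 1 library, whether neighbours in this order differ beyond library error is not known.

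**Figure D1:**
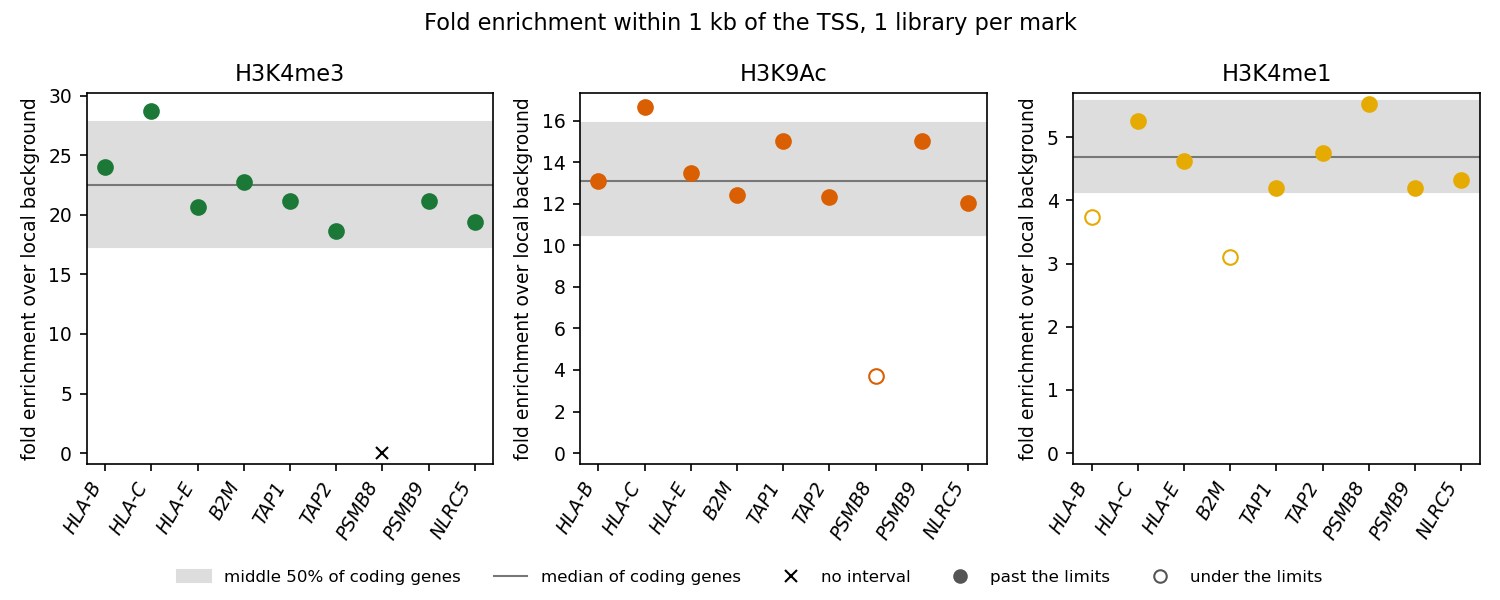
Fold enrichment of the highest interval within 1 kb of the TSS (y axis, linear ratio over local background) for each of the 9 genes (x axis) in the H3K4me3, H3K9Ac and H3K4me1 libraries. Filled points are past the limits, open points are under them, a cross stands for no interval, and the band and line show the middle 50% and median of coding genes with a peak. HLA-C has the highest H3K4me3 (28.7) and H3K9Ac (16.7) values, and PSMB8 has no H3K4me3 interval and the highest H3K4me1 value (5.53).

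The heavy chain genes encode the peptide-binding chain of class I. HLA-B and HLA-C present peptides to T cells, and HLA-E presents mainly signal peptides of other class I chains to natural killer cell receptors. HLA-C (ENSG00000204525) occupies chr6:31236526-31239907 on the minus strand. Its H3K4me3 peak, at chr6:31238469-31240520, reached a fold enrichment of 28.7, above 78.5% of coding TSS peaks, and its −log10 q-value was 104. The peak reached 651 bp upstream and 1400 bp downstream of the TSS, across exons 1 to 3 of 8. H3K9Ac lay over almost the same stretch with a fold enrichment of 16.7, above 80.0% of coding TSS peaks.

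H3K4me1 was split around the HLA-C start. An interval past the limits, with a fold enrichment of 5.26, began 629 bp downstream of the TSS and overlapped exon 3. A weaker one of 3.73, under the limits, lay 581 to 1131 bp upstream. The TSS itself lay outside every H3K4me1 interval, as it did at 41.7% of the 11924 coding genes with an H3K4me3 promoter peak. Of the 8 class I genes with such a peak, HLA-C and B2M were the 2 with an uncovered TSS, and both had H3K4me1 on each side of it within 2 kb, an arrangement seen at 27.7% of those coding genes.

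HLA-B (ENSG00000234745) lies 85087 bp from HLA-C, measured between the TSS positions, at chr6:31321649-31334844 on the minus strand. Its H3K4me3 peak at chr6:31323964-31325427 had a fold enrichment of 24.03, above 57.2% of coding TSS peaks. At 1464 bp it was narrower than the HLA-C peak of 2052 bp, and only 16.4% of coding TSS peaks were narrower still. The H3K9Ac peak had a fold enrichment of 13.1. H3K4me1 spanned the TSS with a fold enrichment of 3.74, and its −log10 q-value of 2.78 was just short of the limit of 3. HLA-B and B2M were thus the only members without an H3K4me1 peak past the limits within 1 kb of the TSS, while the other 7 had one (49.1% of coding genes).

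A second group of intervals lay at the far 5′ end of the HLA-B record, which reaches 9888 bp upstream of the canonical TSS. There CTCF had a fold enrichment of 15.3 at chr6:31334474-31336467, and H3K4me1 one of 4.34, both past the limits. H3K4me3 of 3.52 and H3K9Ac of 3.81 at the same place were under them. The pseudogene DHFRP2 overlaps these intervals. The remainder of the HLA-B record between this group and the promoter held no interval of any of the 6 marks.

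HLA-E (ENSG00000204592), at chr6:30457286-30461971 on the plus strand, had the lowest H3K4me3 value of the 3 heavy chain genes among the members. Its peak at chr6:30456288-30458485 had a fold enrichment of 20.7, above 40.8% of coding TSS peaks, and was placed almost evenly about the TSS, with 998 bp upstream and 1199 bp downstream. The H3K9Ac peak, with a fold enrichment of 13.5, reached further into the gene, to 2121 bp and exon 5 of 8. H3K4me1 covered the TSS with a fold enrichment of 4.63. A CTCF interval of 2239 bp with a fold enrichment of 11.6 lay 5377 to 7615 bp upstream, together with H3K4me1 of 3.39 and H3K9Ac of 3.22, both under the limits.

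B2M encodes β2-microglobulin, the light chain that every class I molecule needs, and is the only member on chromosome 15. B2M (ENSG00000166710) lies at chr15:45003556-45011049 on the plus strand. Its H3K4me3 peak, at chr15:45003047-45005435, was the widest of the members at 2389 bp and had a fold enrichment of 22.7, above 50.9% of coding TSS peaks. The H3K9Ac peak was also the widest, at 3439 bp, with a fold enrichment of 12.4. Both peaks also contain the TSS of PATL2, 194 bp from that of B2M, so their width cannot be assigned to B2M alone.

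The B2M promoter was flanked by H3K4me1, with an interval of 3.11 under the limits 788 to 1280 bp upstream and one of 4.83 past them 1669 to 2246 bp downstream in intron 1. Each flank also held a CTCF interval under the limits, with fold enrichments of 5.73 upstream and 5.11 downstream. These exceed the fold limit of 5, and their −log10 q-values of 7.03 and 5.63 fall short of 10. At the 3′ end, H3K9Ac of 2.95, under the limits, overlapped exon 4 and ran past the end of the gene.

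**Figure D2:**
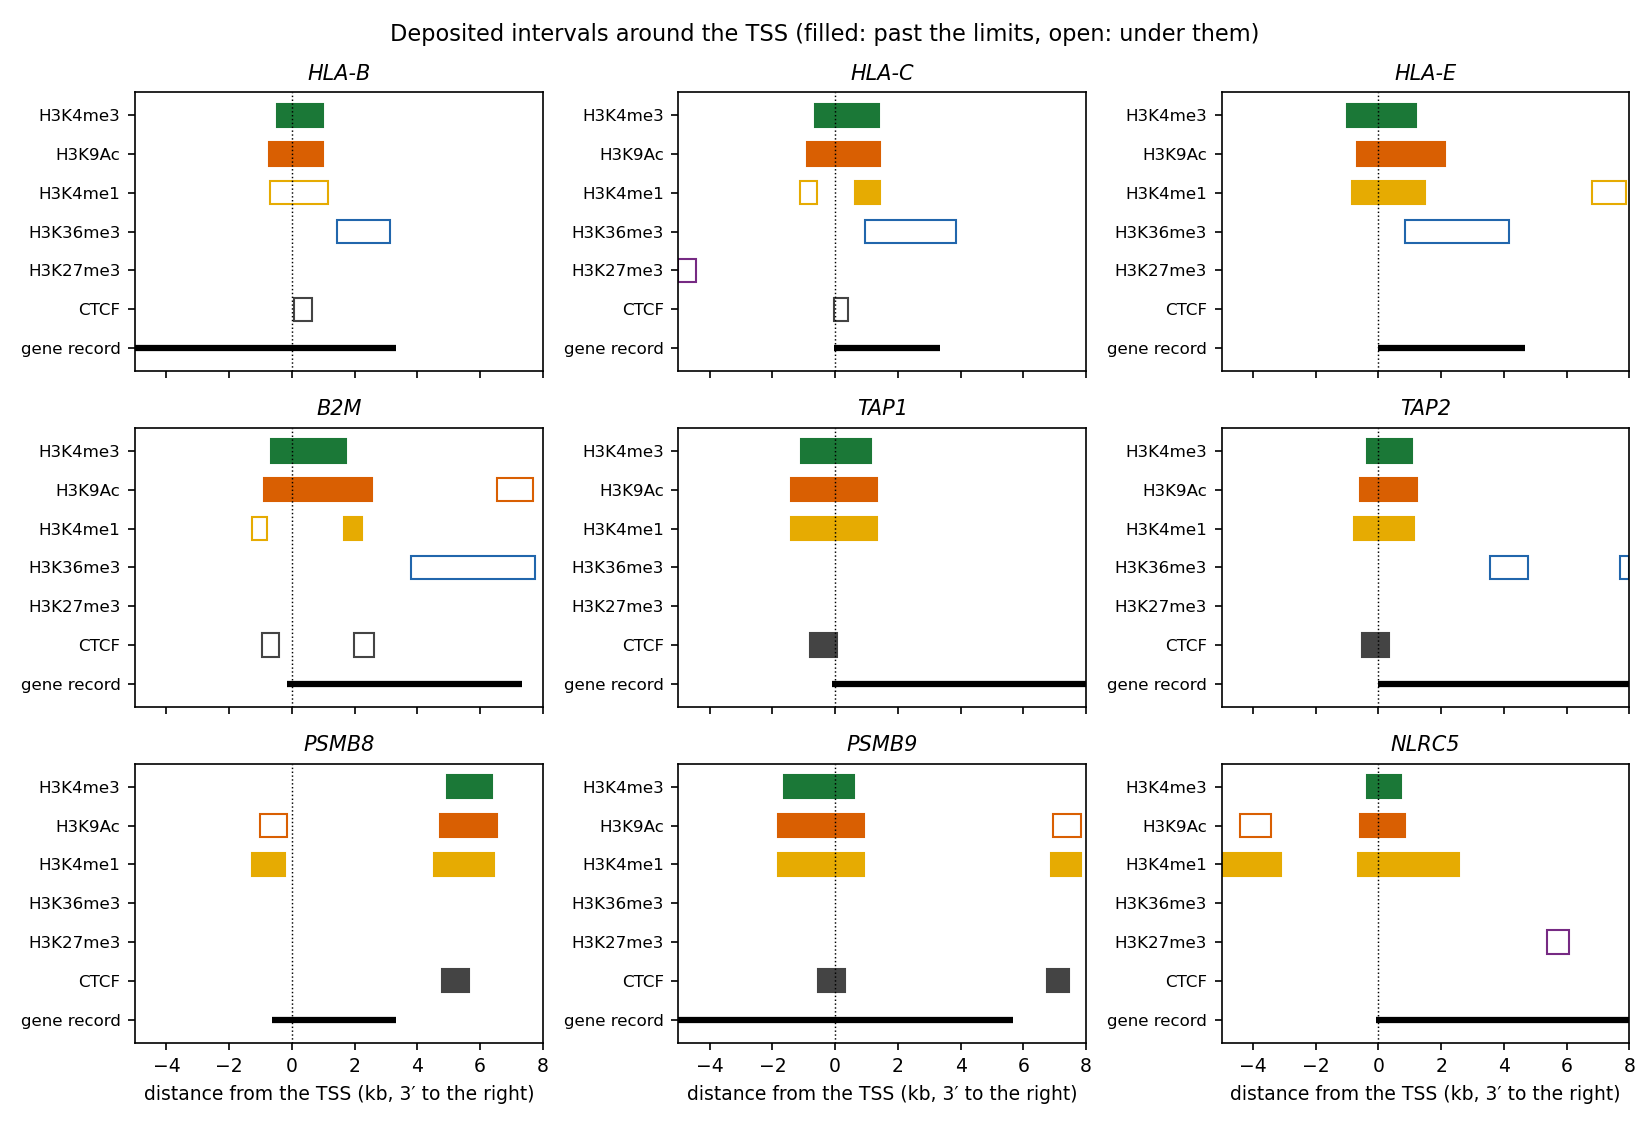
Deposited intervals of each mark (rows) from 5 kb upstream to 8 kb downstream of the TSS (x axis, distance in kb with the 3′ direction to the right) for the 9 genes. Filled bars are past the limits, open bars are under them, the dotted line is the TSS and the black bar is the annotated gene record. H3K4me3 covers the TSS in every panel but PSMB8. Open H3K36me3 bars lie downstream of the TSS within HLA-B, HLA-C, HLA-E, B2M and TAP2, and those of TAP2 end well before the end of the gene.

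TAP1, TAP2, PSMB8 and PSMB9 lie together in the class II region of chromosome 6, and their windows overlap, so 15 of the 73 intervals belong to more than 1 window. TAP1 and TAP2 encode the subunits of the peptide transporter. TAP2 (ENSG00000204267), at chr6:32789610-32806516 on the minus strand, had the lowest H3K4me3 value of the 8 genes. Its peak at chr6:32805431-32806874 had a fold enrichment of 18.6, above 30.9% of coding TSS peaks, and was 1444 bp wide. H3K9Ac had a fold enrichment of 12.3 and H3K4me1 one of 4.75. The promoter is shared with the coding record ENSG00000250264, which overlaps TAP2.

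The strongest CTCF interval at a member promoter lay at TAP2. At chr6:32806173-32807028 its fold enrichment was 22.8, above 90.0% of the CTCF peaks at coding TSS positions and 98.7% of the whole CTCF list, with a −log10 q-value of 67.3. It reached from 512 bp upstream to 343 bp downstream of the TSS and lay across the upstream edge of the H3K4me3 peak.

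TAP1 (ENSG00000168394), at chr6:32812986-32821593 on the minus strand, and PSMB9 (ENSG00000240065), at chr6:32811913-32827628 on the plus strand, start 488 bp apart and are transcribed away from each other. PSMB9 encodes the β1i subunit of the immunoproteasome. A common H3K4me3 peak at chr6:32820324-32822581 had a fold enrichment of 21.2 and a width of 2258 bp, above 43.0% of coding TSS peaks in fold. The common H3K9Ac peak of 15.03 was, after HLA-C, the highest of the members, and above 68.5% of coding TSS peaks. The common H3K4me1 interval of 4.20 covered both starts and was the lowest of the H3K4me1 values past the limits at a member TSS. A CTCF peak of 11.7 at chr6:32821416-32822281 also covered both starts.

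PSMB8 encodes the β5i subunit of the immunoproteasome and was the exception among the 9 genes. PSMB8 (ENSG00000204264) lies at chr6:32808494-32812456 on the minus strand, 5308 bp from the TAP2 TSS and 9657 bp from the TAP1 TSS. The H3K4me3 list held nothing within 1 kb of its TSS, whether past the limits or under them. H3K9Ac was present under the limits, with a fold enrichment of 3.73 (−log10 q-value 3.13), from 170 to 1032 bp upstream. H3K4me1 in the same place was past the limits, at chr6:32812032-32813083, with a fold enrichment of 5.53, the highest of the members and above 74.2% of coding TSS peaks. It ended 208 bp upstream of the TSS and overlapped the annotated records of PSMB8, PSMB8-AS1, PSMB9 and the last exon of TAP1. The H3K9Ac and H3K4me1 intervals both contain the 5′ end of the PSMB8 record, chr6:32812456, which lies upstream of the canonical TSS. H3K36me3, H3K27me3 and CTCF had no interval within 1 kb of the PSMB8 TSS. Its 300-base promoter held 15 CpG dinucleotides, fewer than in the other members except HLA-E with 12, which had an H3K4me3 peak. The median over coding promoters was 23.

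**Figure D3:**
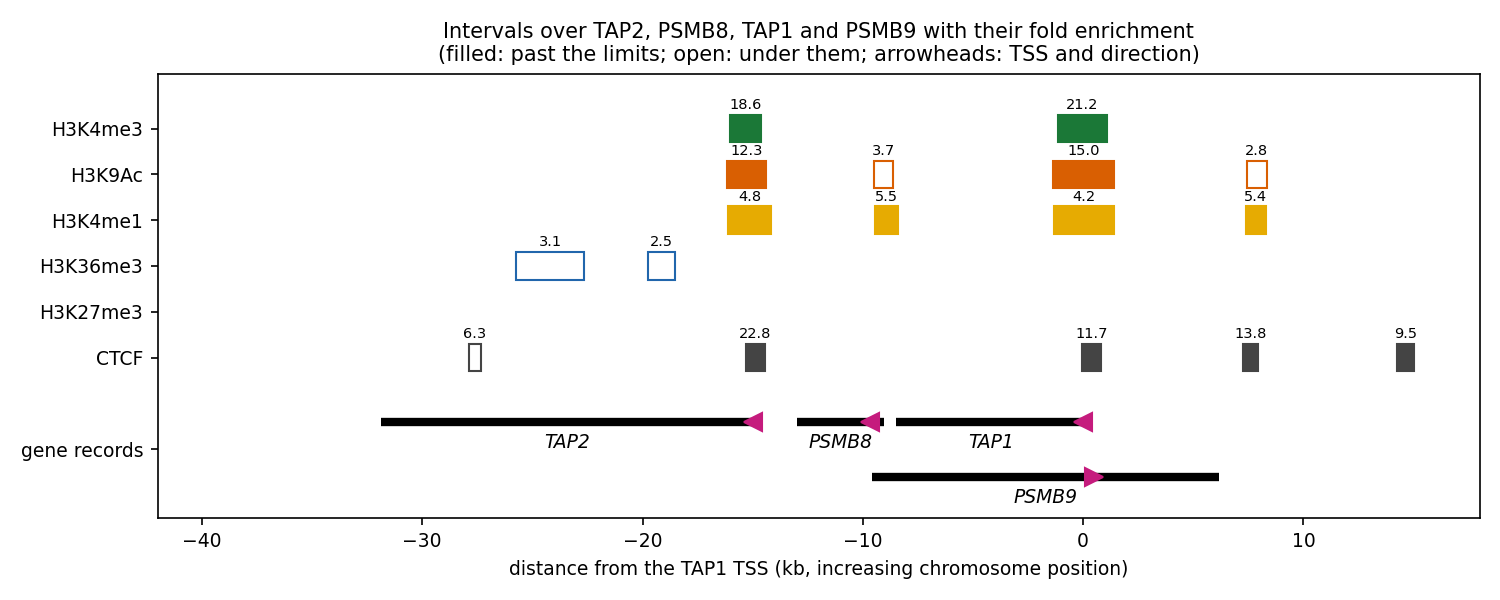
Intervals of each mark (rows) over TAP2, PSMB8, TAP1 and PSMB9, by distance from the TAP1 TSS (x axis, kb, in the direction of increasing chromosome position), with the fold enrichment printed above each. Filled bars are past the limits, open bars are under them, and arrowheads on the gene records mark the TSS and direction. H3K4me3 stands at the TAP2 start (18.6) and between TAP1 and PSMB9 (21.2), and the PSMB8 start lies beside H3K4me1 of 5.53 and H3K9Ac of 3.73 alone.

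Downstream of PSMB9 lay a further group, 6761 to 7856 bp from its TSS and outside every annotated gene. CTCF had a fold enrichment of 13.8 there and H3K4me1 one of 5.43, both past the limits, while H3K9Ac of 2.77 was under them. A last CTCF peak of 9.51 lay at chr6:32835747-32836516 with no other mark.

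NLRC5 encodes the class I transactivator and is by far the longest member, 94047 bp at chr16:57023397-57117443 on the plus strand (ENSG00000140853). Its H3K4me3 peak at chr16:57023103-57024197 had a fold enrichment of 19.4, above 34.5% of coding TSS peaks. It was the narrowest of the members at 1095 bp, and only 4.46% of coding TSS peaks were narrower. The H3K9Ac peak was also the narrowest and lowest of the 8, at 1429 bp and 12.02. H3K4me1, in contrast, covered the start as the widest interval at a member TSS, 3228 bp, with a fold enrichment of 4.32.

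NLRC5, whose window is by far the longest, had 6 H3K4me1 intervals, all past the limits. This is more than at any other member, but the counts were not scaled to window length. One of 5.15 lay 3094 to 5573 bp upstream of the TSS and contained an H3K9Ac interval of 4.79 under the limits. Inside the gene, H3K4me1 of 3.64 lay in intron 1, 5.22 across exons 31 and 32, and 5.37 in intron 38. H3K9Ac under the limits accompanied the exon 31 and intron 38 intervals with fold enrichments of 2.81 and 3.05, and H3K9Ac of 2.94 stood alone in intron 24. The remaining H3K4me1 interval, of 7.25, lay at the promoter of the neighbour CPNE2.

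H3K36me3 over the gene bodies was found at a share of the members near that of all coding genes. No member had an H3K36me3 interval past the limits, which only 0.496% of coding genes had, so the deposited intervals under the limits are given. They overlapped 5 of the 9 bodies: HLA-B, HLA-C, HLA-E, B2M and TAP2. Over all coding genes the share was 56.3%. TAP1, PSMB8, PSMB9 and NLRC5 had none. At B2M the interval covered exons 2 to 4 and ended 411 bp past the end of the gene, with a fold enrichment of 4.36, above 97.2% of the H3K36me3 list. At HLA-E it covered exons 3 to 8 with a fold enrichment of 3.80, above 92.0% of the list, and at HLA-C exons 3 to 8 with 3.08. At HLA-B exons 4 to 8 were covered with 3.30. TAP2 had an interval of 3.08 over exons 8 to 12 and one of 2.49 at exon 5.

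The covered share of the record was 70.9% for HLA-C, 70.8% for HLA-E, 47.3% for B2M, 25.4% for TAP2 and 13.0% for HLA-B, whose record includes the long upstream stretch. The median over coding genes with any such interval was 44.5%. In HLA-C and HLA-E the H3K36me3 interval began before the H3K4me3 peak ended, with overlaps of 456 and 353 bp. In HLA-B the marks were 430 bp apart and in B2M 2072 bp. The H3K36me3 intervals of HLA-C and HLA-E began 945 and 847 bp after the TSS. These were the 2 members with an H3K36me3 interval within 1 kb of the TSS (6.49% of coding genes for deposited intervals, 0.298% past the limits).

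Few H3K27me3 intervals lay in the windows. Of the whole H3K27me3 list, 1552 of 55270 deposited intervals were past the limits. The shares of all coding genes were also low, at most 20.7%, so the member counts do not set these genes apart. No member had an interval past the limits at the TSS (1.22% of coding genes) or over the body (2.96%), and no member had even a deposited interval at the TSS (9.60%). Of the 3 deposited intervals, all under the limits, a 712 bp interval of 2.64 lay in NLRC5 intron 1 and covered 0.757% of that gene, which made NLRC5 the 1 member with a deposited body interval (20.7% of coding genes). The others lay outside the genes, with fold enrichments of 3.19 upstream of HLA-C at the pseudogene USP8P1 and 3.25 downstream of HLA-B.

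CTCF peaks past the limits stood at the TSS of TAP1, TAP2 and PSMB9 on 2 peaks, against 13.6% of coding genes. With all deposited intervals HLA-B, HLA-C and B2M were added, which makes 6 of 9 (29.5% of coding genes), with fold enrichments of 4.12 at HLA-B, 4.65 at HLA-C and 5.73 at B2M. For H3K4me1, all 9 genes had a deposited interval at the TSS (61.2%). In all, 15 CTCF intervals fell in the windows and 8 were past the limits. Beside those already given, TAP2 had CTCF of 6.30 in exon 12 and HLA-B one of 5.22 further upstream, both under the limits. NLRC5 had CTCF of 6.43 in intron 21 under the limits, 16.1 just beyond its 3′ end, and 23.4 at CPNE2.

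The core of the CTCF motif, searched on both strands, was found in 2 of the 8 CTCF intervals past the limits, and in 22.4% of all 24536 CTCF peaks past the limits. Both are shown with 12 bases on either side, on the minus strand and with the core in capitals, since they place the motif inside the intervals upstream of HLA-B and downstream of PSMB9.
Upstream of HLA-B, chr6:31334833-31334868: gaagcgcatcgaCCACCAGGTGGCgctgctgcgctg
Downstream of PSMB9, chr6:32836137-32836172: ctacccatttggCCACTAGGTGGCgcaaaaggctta
The strong intervals at the TAP2 promoter and at CPNE2 held no match of the core, even with 1 mismatch.

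The other genes of the pathway were described from lists of 42 genes. Promoter H3K4me3 past the limits was found at 28 of the 42 (59.1% of all coding genes), and H3K9Ac at 27 (58.5%). H3K4me1 was found at 18 (49.1%) and CTCF at 2 (13.6%), and H3K36me3 and H3K27me3 at 0. The share of the 42 genes was slightly above that of all coding genes for H3K4me3 and H3K9Ac and below it for H3K4me1 and CTCF. Of the further class I heavy chains, HLA-F had H3K4me3 of 20.2 and HLA-G had no interval of any mark at its TSS. Of 7 genes for peptide loading and trimming, 6 had an H3K4me3 peak, from 7.09 at ERAP2 to 34.1 at ERAP1, both aminopeptidases that trim peptides, and TAPBPL, a relative of tapasin, had none. All 7 further proteasome genes had one, from 18.2 at PSMB6 to 28.9 at PSME3. PSMB5, whose constitutive subunit PSMB8 replaces in the immunoproteasome, had an H3K4me3 value of 19.9, and PSMB10, the third immunoproteasome subunit, had 28.5. PSMB8 was thus the only proteasome gene examined without a deposited H3K4me3 interval within 1 kb of the TSS.

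All 10 transcription regulators had an H3K4me3 peak, from 9.65 at RFX5 to 30.7 at RELA, and so did the 4 genes of the interferon γ receptor and its kinases, from 19.4 at IFNGR1 to 32.4 at JAK1. None of the 12 MHC class II genes had one: CIITA, HLA-DRA, HLA-DRB1, HLA-DPA1, HLA-DPB1, HLA-DQA1, HLA-DQB1, HLA-DMA, HLA-DMB, HLA-DOA, HLA-DOB and CD74. CIITA is the class II counterpart of NLRC5, and it had H3K4me1 of 3.42 and H3K27me3 of 2.81 at the TSS, both under the limits. HLA-DRA and HLA-DQB1 had H3K4me3 intervals of 3.62 and 5.36 under the limits, and HLA-DMA had the only CTCF peak past the limits of this list, of 7.02. HLA-DOB, with no interval at its TSS, lies 21737 bp from the TAP2 start. Promoters with and without a deposited H3K4me3 interval thus alternate in this region. Deposited H3K36me3 intervals, which 56.3% of coding genes had over the body, lay over 0 of the 2 further heavy chains, 6 of 7 loading and trimming genes, 7 of 7 proteasome genes, 9 of 10 regulators, 4 of 4 interferon γ receptor genes and 2 of 12 class II genes. No test was made between lists, which were chosen by function.

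**Figure D4:**
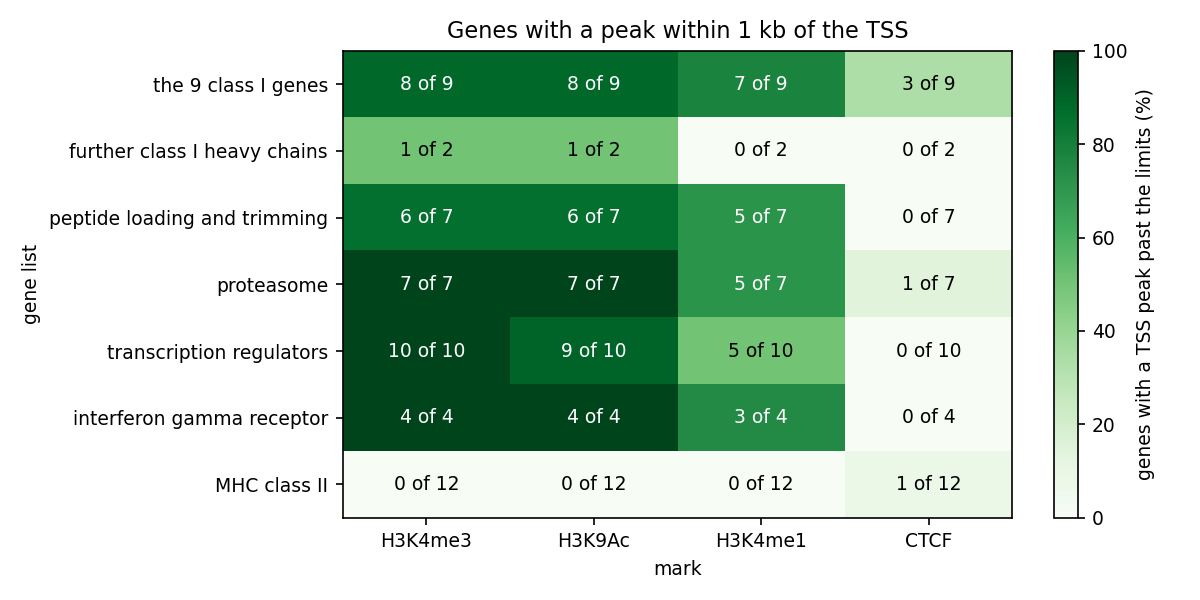
Number of genes with a peak past the limits within 1 kb of the TSS, for the 9 class I genes and each pathway list (rows) in the H3K4me3, H3K9Ac, H3K4me1 and CTCF libraries (columns). Colour gives the same as a percentage of the list. H3K4me3 is at 8 of 9 class I genes and 0 of 12 class II genes, against 59.1% of all coding genes.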

How the data were processed

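Alignment by the authors was to hg19 (BWA 0.7.12). Broad peaks were called in each library with MACS, which the methods name as MACS2 with a broad cutoff of 0.1 and the submitters' processing notes as version 1.4.2. The methods describe paired-end reads, and the labels single-end or either kind. The deposited lists give a score (not used here), the fold enrichment, a linear ratio over local background, and the −log10 p-value (not used) and −log10 q-value of each interval. They include intervals under the limits of the methods, which name none for CTCF, so those for all other marks were applied. Per-sample columns left unmapped numbered 0.

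Intervals were assigned to the 9 genes by an overlap of at least 1 bp with the gene record and 10 kb around it, and to a TSS within 1 kb. The TSS came from the canonical transcript in GENCODE 44, which 19881 of 20162 coding genes had, and from the 5′ end of the gene otherwise. Where several intervals lay at a TSS, the one with the highest fold was used. Sequences were read from the GRCh37 primary assembly, and 1 promoter stretch and 1 marker gene are not reported here. For the 9 genes, 75-base windows were checked in the 1 kb on either side of the TSS. Those found more than once in hg19 made up 0.311% for HLA-E, 0.519% for TAP2 and 0% for the other members. The genes of the pathway lists, class II among them, were not checked in this way. How reads from HLA alleles that differ from hg19 were placed was not tested.

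The genes named were the 9 members, every pathway gene without an H3K4me3 TSS peak past the limits, and the highest and lowest of each list; PSMB5, PSMB10 and the neighbours were named after their values were seen. Members and lists were chosen with earlier results of these data known. Python 3.11.15 with numpy 2.4.6, pyfaidx 0.9.0.4, Biopython 1.88 and matplotlib 3.10.9 was used with samtools 1.23.1. Simulated intervals served to check how overlaps are found. Alternatives were all deposited intervals, stricter fold limits, other windows, flanks and overlaps, and the 5′ end of the gene as TSS.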

Additional observations from a re-analysis of the deposited data

How the results depend on the processing

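No paired analysis was possible because every antibody stands for a single well and library. Of 92 values recomputed under alternatives, 77 stayed within 1.5 times of the value reported, and 15 moved further. The median H3K9Ac fold enrichment at the TSS ranged from 13.1 to 13.3, and that of H3K4me1 from 4.32 to 4.69. The 73 intervals in the windows became 48 with the gene body alone and 41 with those past the limits. With all deposited intervals, genes with an interval at the TSS rose from 0 to 2 for H3K36me3 and from 3 to 6 for CTCF, those with one over the body from 0 to 5 for H3K36me3 and from 0 to 1 for H3K27me3, CTCF intervals from 8 to 15, and those with the core from 2 to 4. Body H3K36me3 was at 3 genes with q below 0.01 and fold above 2, and at 5 with all intervals covering at least 10% of the body, an alternative chosen after seeing the data. Of the 42 pathway genes, all deposited intervals gave 29 for H3K4me1 in place of 18, 2 in place of 0 for H3K36me3 and for H3K27me3, and 8 in place of 2 for CTCF, which fell to 1 with the fold limit multiplied by 1.5. With the 5′ end of the record in place of the canonical TSS, H3K4me3 and H3K9Ac were each at 6 of the 9 genes in place of 8, without HLA-B and PSMB9, whose records begin far upstream of it. The lists hold no counts, so an interval that is missing was not detectable at an unknown depth, and is not shown to be absent.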

Other observations

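The windows also held intervals over neighbouring genes, which are counted in the totals of the windows above. CPNE2, beyond the 3′ end of NLRC5, had an H3K4me3 fold enrichment of 33.7, above 94.0% of the H3K4me3 list and higher than at any of the 9 genes, with H3K9Ac of 17.1, H3K4me1 of 7.25 and CTCF of 23.4 at the same place. In the B2M window, intervals over TRIM69 had H3K4me3 of 14.5, H3K9Ac of 7.97 and H3K4me1 of 3.90, all past the limits. A 556 bp H3K36me3 interval of 3.80 lay 9252 to 9807 bp downstream of the HLA-E TSS and outside every annotated gene, with a fold enrichment equal to that over the HLA-E body.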
